A study of Mus musculus with 8 samples.

Results

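Dopamine synthesis, vesicular loading and reuptake were followed through 5 genes, Th, Ddc, Slc18a2, Cyb561 and Slc6a3, out of 38924 genes counted in each of 8 mouse libraries. The genes were chosen for their roles, with earlier results of these data known, and each was found once in every table by its Ensembl identifier. The libraries hold RNA recovered with tagged ribosomes (bacTRAP, in which a transgene tags the ribosomes of a chosen cell type) from embryonic brain. Of the dopamine libraries, all from midbrain, 2 are labelled datL, 2 datM, 1 Lateral and 1 Medial, and the 2 serotonin libraries are from hindbrain. In the series' design text 2 mouse lines appear, with the tag under the dopamine transporter gene Slc6a3 or the serotonin transporter gene Slc6a4. The description of every library, the serotonin libraries included, names the Slc6a3 line JD1640, so groups were taken from the titles. The titles of datL and datM say midbrain neurons without the word dopamine, and their type was inferred from dat in the name.

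Per the labels, embryos were dissected at embryonic day 15, and midbrain called E18 was taken at day 15 and kept in culture for 3 days. That sentence is attached to all 8 libraries alike. In the file headers the mark E18 stands on Lateral and Medial and on no other library. Those headers also place Lateral, Medial and both serotonin libraries in lane 8 of a sequencing run, and datL and datM in a run named for October. Mark and run therefore cannot be told apart within the dopamine libraries. The labels do not spell out the L and M of datL and datM, and do not tell which animals each replicate came from. The p-values below therefore reflect variation among libraries, which may be technical. Because the pull-down of the dopamine libraries was driven by Slc6a3, high counts of that gene in them check the labels and are no independent result. If the serotonin libraries came from the Slc6a4 line of the design text, the same holds for Slc6a4 in them.

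Dopamine is made from tyrosine in 2 steps: tyrosine hydroxylase (Th) makes L-DOPA and is rate-limiting, and aromatic amino acid decarboxylase (Ddc) turns L-DOPA into dopamine. Vesicular monoamine transporter 2 (Slc18a2) then loads the amine into vesicles, using the proton gradient of a vesicular ATPase. Cytochrome b561 (Cyb561) carries electrons across the membrane of secretory vesicles and so regenerates the ascorbate inside, and the dopamine transporter (Slc6a3) takes released dopamine back into the neuron. Serotonin neurons share Ddc and Slc18a2, but begin with Tph2 and take serotonin up through Slc6a4. Noradrenaline neurons of the hindbrain also use Th.

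Library totals were 22417739 to 33216710 counts. Genes detected numbered 11708 to 12509 in datL and datM, and 13703 to 15656 in the libraries of lane 8. Many abundant genes dropped out of single October libraries: of 4521 genes with at least 10 CPM (a count divided by the library's total and scaled alike in all libraries) in the other 5 dopamine libraries, 260 (5.75%) were under 1 CPM in datL replicate 1. The share was 1.41% in datL replicate 2, 3.33% and 2.69% in the datM libraries, 0.59% in Medial and 0.0% in Lateral. Slc18a2 and Cyb561 were among the genes missing from datL replicate 1. Among markers of midbrain dopamine neurons other than the 5 genes, Nr4a2 was at 56.7 to 463 CPM in the dopamine libraries and Lmx1a at 28.3 to 343 CPM. Of all 12 such markers, 5 were higher in every dopamine library than in both serotonin libraries and 1 was lower, beside 3.06% and 8.59% of all genes tested. Their sum was 284 to 1933 CPM in the dopamine libraries, against 361 and 346 CPM in the serotonin libraries. In datL replicate 1 that sum was thus below both serotonin libraries. This order rests on Slc10a4, which gave 204 and 221 CPM of the serotonin sums and had 0 counts in datL replicate 1. Pitx3, a transcription factor of these neurons, was near 0 everywhere, with at most 4.0 CPM in dopamine libraries and 0.2 CPM in serotonin libraries. Drd2, the dopamine autoreceptor, reached 11.7 CPM in Lateral and at most 0.4 CPM elsewhere.

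The genes fell into 3 kinds of pattern. Th and Slc6a3 were higher in all 6 dopamine libraries than in both serotonin libraries, Ddc and Slc18a2 were lower in all 6, and Cyb561 overlapped. Across all 13806 genes tested, 3.06% lay above both serotonin libraries in every dopamine library and 8.59% lay below them. In edgeR's quasi-likelihood test with Benjamini-Hochberg adjustment, 0 of these genes (0%) passed an adjusted p of 0.05, so none of the 5 genes passed. An unadjusted p under 0.05 was reached by 648 genes (4.69%), and DESeq2 called 125 genes, Th and Slc6a3 among them.

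**Figure D1:**
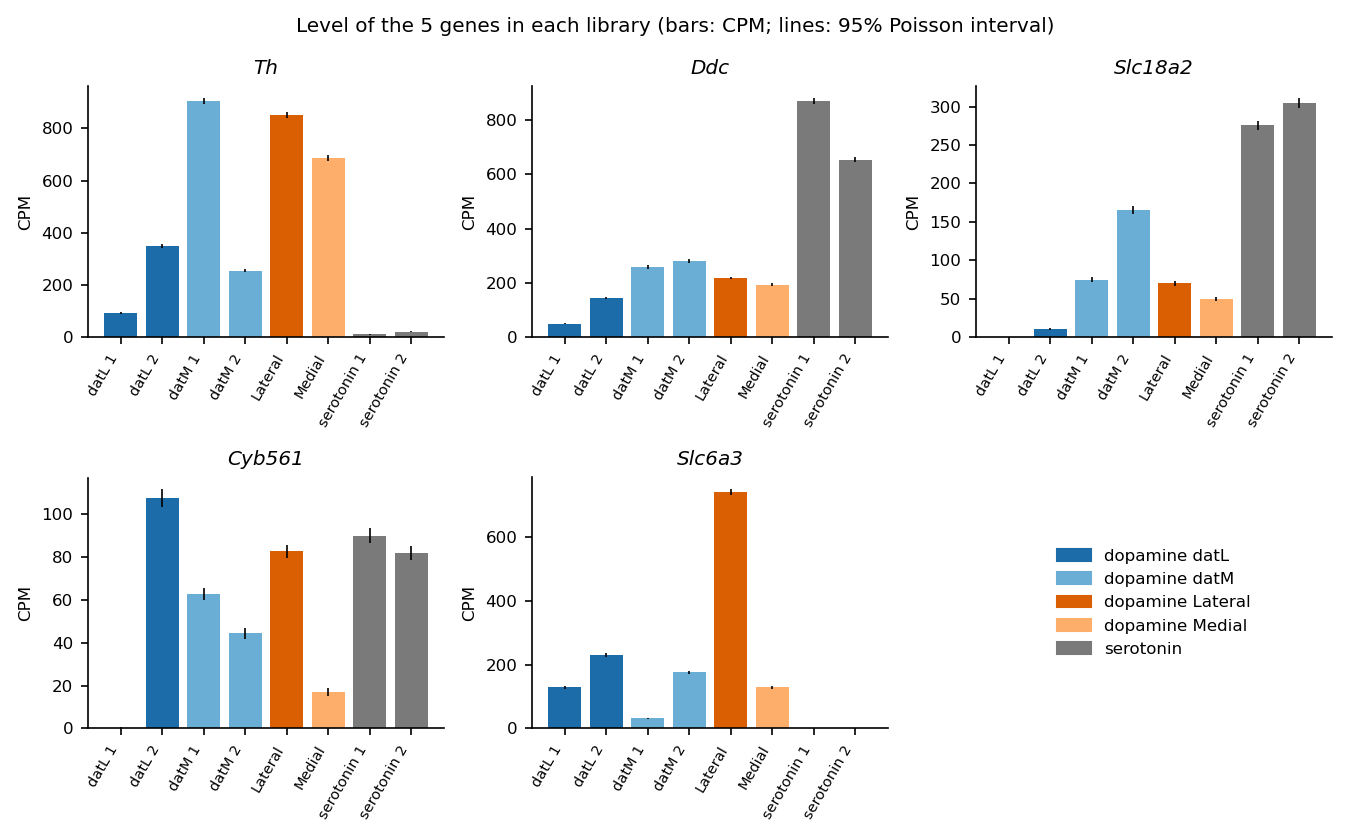
Bars give the CPM of each gene (vertical axis, starting at 0, own scale per gene) in each of the 8 libraries (horizontal axis), and lines give the 95% Poisson interval, which covers counting error only. Th and Slc6a3 are near 0 in both serotonin libraries, Ddc and Slc18a2 are highest there, and datL replicate 1 has 0 counts of Slc18a2 and 5 of Cyb561.

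Th (ENSMUSG00000000214.4, mm10 chromosome 7, 142892752 to 142931128, minus strand) stood at 93.2 and 348 CPM in datL, 905 and 254 CPM in datM, 852 CPM in Lateral and 687 CPM in Medial, against 10.6 and 20.9 CPM in the serotonin libraries. The lowest dopamine library was above the higher serotonin library, while the dopamine libraries themselves spanned 9.72-fold. By rank of CPM, Th was between gene 119 and gene 2152 in the dopamine libraries, and gene 8020 and gene 6286 in the serotonin libraries. Its log2 fold change, dopamine over serotonin, was 5.16 (SE 0.96, 95% interval 3.06 to 7.26, edgeR adjusted p = 0.328), the fifth smallest p of all genes. In lane 8 alone, with Lateral and Medial as the dopamine libraries, it was 5.54 (SE 0.48, 95% interval 4.36 to 6.72, edgeR adjusted p = 0.0829).

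The Th counts of the serotonin libraries were 312 and 610. Of the markers of noradrenaline neurons, Dbh, which makes noradrenaline from dopamine, the noradrenaline transporter Slc6a2 and Phox2a had 0 counts in all 6 dopamine libraries. In serotonin replicates 1 and 2, Dbh stood at 1.53 and 0.823 CPM, Slc6a2 at 0.136 and 3.33 CPM and Phox2a at 0.509 and 1.34 CPM. Slc6a2 and Phox2a were thus higher in the serotonin library with more Th, and Dbh was higher in the library with less. The part of such cells in the Th of the serotonin libraries was not tested. In pulled-down bulk RNA, fewer cells of a type and less RNA per cell cannot be told apart.

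Ddc (ENSMUSG00000020182.10, mm10 chromosome 11, 11814101 to 11898144, minus strand) showed the opposite order. It stood at 48.9 and 144 CPM in datL, 259 and 281 CPM in datM, 217 CPM in Lateral and 193 CPM in Medial, against 871 and 654 CPM in the serotonin libraries. No dopamine library reached the lower serotonin library, and Ddc was the gene of rank 119 and 193 in the serotonin libraries. Its log2 fold change was -1.88 (SE 0.50, 95% interval -2.97 to -0.79, edgeR adjusted p = 0.339) over all libraries. Within lane 8 it was -1.97 (SE 0.31, 95% interval -2.74 to -1.21, edgeR adjusted p = 0.272). RefSeq lists 2 start sites for Ddc, and the deposited count pools the transcripts of both.

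Slc18a2 (ENSMUSG00000025094.7, mm10 chromosome 19, 59260878 to 59296012, plus strand) followed Ddc. It had 0 counts in datL replicate 1, which allows up to 0.132 CPM at 3 counts, and stood at 10.2 CPM in datL replicate 2. The datM libraries had 74.1 and 166 CPM, Lateral 69.7 CPM and Medial 49.5 CPM, against 275 and 305 CPM in the serotonin libraries. All dopamine libraries lay below the serotonin libraries, and both datL libraries lay below all other dopamine libraries. The log2 fold change, dopamine over serotonin, was -2.12 (SE 1.32, 95% interval -5.02 to 0.77, edgeR adjusted p = 1), and within lane 8 it was -2.35 (SE 0.34, 95% interval -3.18 to -1.52, edgeR adjusted p = 0.254).

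Among the RefSeq promoter windows (GRCm38.p6, the assembly of mm10, 250 bases before to 50 after each start site), 4 of the 5 genes had an entry, and Cyb561 had none. Th and Slc18a2 each held the palindromic cyclic AMP response element TGACGTCA, read the same on both strands. Both sites are printed because the genes share this motif and lay on opposite sides in the comparison of dopamine with serotonin. It begins 45 bases before the start site of Th and 4 bases before that of Slc18a2. Capitals mark the element, and each line runs 5′ to 3′ on the gene's own strand.
Th, chr7:142900022-142900051, minus strand: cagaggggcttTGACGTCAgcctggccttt
Slc18a2, chr19:59260863-59260892, plus strand: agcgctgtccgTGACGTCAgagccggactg
The element was present in 588 of 32851 promoter windows (1.79%). It was absent from the windows of Ddc and Slc6a3. The response element of the NR4A receptors, AAAGGTCA, searched on both strands, was found once, in a window of Ddc, on the strand opposite to the gene. Read along the gene's own strand, the match begins 73 bases before the start site. AAAGGTCA was present in 1.51% of all windows. The GC box GGGCGG occurred in the windows of Th, Slc6a3 and Slc18a2 and in 35.7% of all windows. A match is a description of these letters and not of a bound site.

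Cyb561 (ENSMUSG00000019590.10, mm10 chromosome 11, 105933702 to 105953336, minus strand) did not separate the neuron types, and datL overlapped with datM, while Medial lay below Lateral and both datM libraries. It stood at 0.220 and 107 CPM in datL, 62.6 and 44.3 CPM in datM, 82.5 CPM in Lateral and 16.9 CPM in Medial, against 89.7 and 81.6 CPM in the serotonin libraries. The extremes of all 8 libraries were both datL libraries, with 5 and 2812 counts. The log2 fold change, dopamine over serotonin, was -0.56 (SE 1.22, 95% interval -3.23 to 2.11, edgeR adjusted p = 1), and within lane 8 it was -0.83 (SE 0.75, 95% interval -2.67 to 1.02, edgeR adjusted p = 0.713). Both intervals include 0, so no difference was detectable, and neither shows that the types are alike.

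Slc6a3 (ENSMUSG00000021609.6, mm10 chromosome 13, 73536747 to 73578672, plus strand) stood at 129 and 229 CPM in datL, 31.9 and 176 CPM in datM, 740 CPM (24565 counts) in Lateral and 130 CPM (2904 counts) in Medial. The serotonin libraries had 20 and 5 counts, which are 0.679 CPM (95% Poisson interval 0.415 to 1.05) and 0.171 CPM (0.0557 to 0.400). Every dopamine library was above them, and Lateral alone exceeded 230 CPM. The log2 fold change was 9.23 (SE 1.53, 95% interval 5.89 to 12.57, edgeR adjusted p = 0.229), and 9.94 within lane 8 (SE 1.31, edgeR adjusted p = 0.254). Its dopamine libraries spanned 23.2-fold, more than those of Th.

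Within lane 8, 3 of 13400 genes (0.0224%) passed an edgeR adjusted p of 0.05, and none of the 5 was among them. Aldh1a1 was higher (0.00746% of genes), and Slc6a4 and the serotonin neuron factor Fev were lower (0.0149%). If the serotonin libraries came from the Slc6a4 line, the call of Slc6a4 checks the labels and is no independent result. An unadjusted p under 0.05 was reached by 1849 genes (13.8%, with 7.34% higher and 6.46% lower), and by all of the 5 but Cyb561. The same 4 genes did not overlap between the neuron types, which held for 25% of genes as higher and 24.6% as lower. DESeq2 called 787 genes, again with these 4 among them. With no expression filter 7 genes passed, Th among them (edgeR adjusted p = 0.0221). Leaving out any of these libraries leaves 1 library in a group, so only fold changes are given. Without each library, the log2 fold change ran from 5.13 to 6.09 for Th and from 8.10 to 11.24 for Slc6a3. For Ddc it ran from -2.18 to -1.74, for Slc18a2 from -2.69 to -2.07 and for Cyb561 from -2.47 to -0.06. The value of -2.47 for Cyb561 is that without Lateral. In each of those fits the lone library of a group is assumed to vary like the other pair. Since the mark E18 stands on the dopamine libraries of lane 8 alone, neuron type and mark cannot be told apart there. In every comparison of dopamine with serotonin, neuron type also goes with brain region and, per the design text, with mouse line. These cannot be told apart either.

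**Figure D2:**
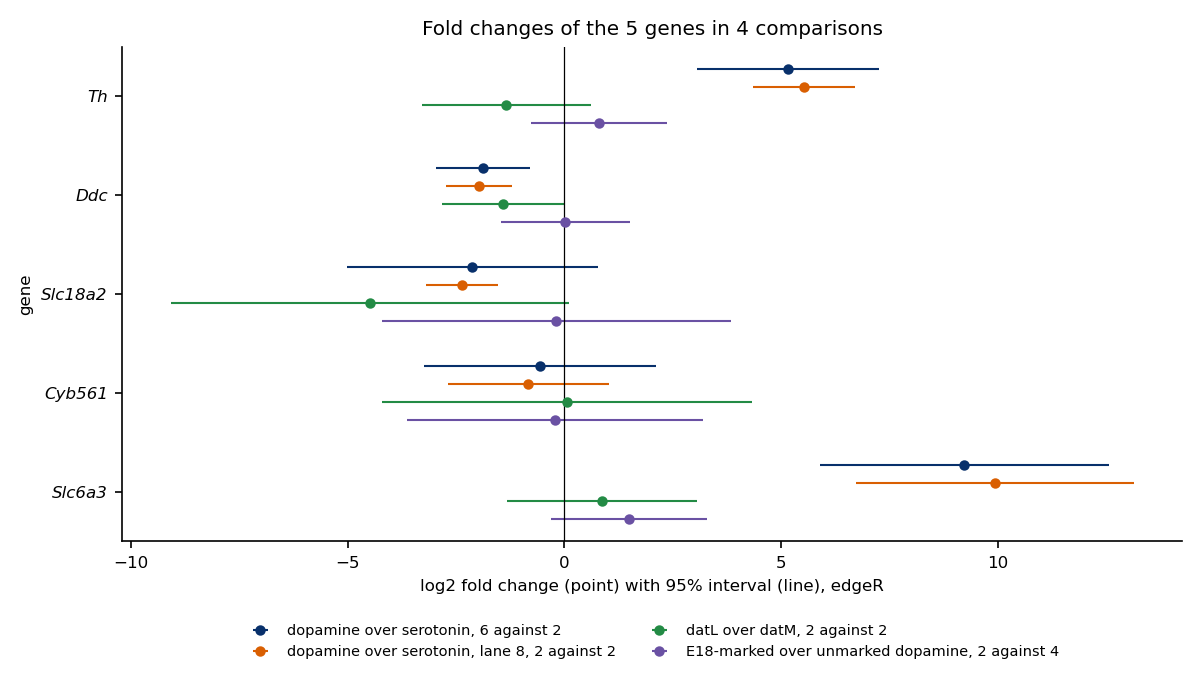
Points give the edgeR log2 fold change (horizontal axis) of each gene (vertical axis) in 4 comparisons, named in the legend with their numbers of libraries, and lines give 95% intervals. For Th and Slc6a3 both intervals of dopamine over serotonin lie above 0, for Ddc both lie below 0, and for Cyb561 all 4 intervals include 0.

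Other markers moved with this comparison. All 6 markers of radial glia and astrocytes were counted in every library, and their summed level was 1919 to 4918 CPM in the dopamine libraries, against 900 and 1188 CPM in the serotonin libraries. Taken singly over all libraries, 3 of the 6 were higher without overlap and 0 lower, beside 3.06% and 8.59% of all genes tested, and the others overlapped. The 5 red blood cell markers summed to 102 to 606 CPM in the dopamine libraries, against 26.1 and 40.7 CPM in the serotonin libraries, with Alas2 at 0 in some libraries of both types. The 5 markers of all neurons summed to 7584 to 14137 CPM in the dopamine libraries, against 8589 and 9219 CPM in the serotonin libraries. The 4 markers of the oligodendrocyte lineage summed to 28.3 to 181 CPM in the dopamine libraries, against 5.5 and 16.8 CPM in the serotonin libraries, with Olig2 or Sox10 at 0 in 4 dopamine libraries. Markers of GABA neurons overlapped over all libraries (50.2 to 785 CPM in dopamine libraries, against 115 and 161 CPM in serotonin libraries). Within lane 8 all 4 of them were higher without overlap, as were 25% of all genes tested there. They summed to 785 CPM in Lateral and 392 CPM in Medial. Slc17a6, a vesicular glutamate transporter, was also higher within lane 8, at 76.2 CPM in Lateral and 320 CPM in Medial, against 15.0 and 31.1 CPM in the serotonin libraries. The part of these markers in the values of Th, Ddc, Slc18a2 and Slc6a3 was not tested.

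A ratio between genes of the same library does not depend on how the libraries are scaled. Per kilobase of counted exon (RPKM), Th exceeded Ddc in all 6 dopamine libraries, 3.6-fold and 4.55-fold in datL, 6.61-fold and 1.71-fold in datM, 7.39-fold in Lateral and 6.70-fold in Medial. In the serotonin libraries Th was at 0.0229 and 0.0603 of Ddc. The mean log2 ratio of counts was 1.28 ± 0.80 (SD, n = 6) in dopamine libraries and -5.66 ± 0.99 (SD, n = 2) in serotonin libraries, a difference of 6.94 (exact permutation test, two-sided, p = 0.0714, adjusted over 10 pairs of genes 0.119). The same p held for 5 other ratios whose groups did not overlap, namely Slc18a2 and Cyb561 over Th, and Slc6a3 over Ddc, Slc18a2 and Cyb561. Each ratio of Th or Slc6a3 with Ddc or Slc18a2 had to separate, since the levels of these genes already lay on opposite sides. Those ratios restate that separation and are no further result. Slc6a3 also drove the pull-down of the dopamine libraries. The test doubles the one-sided p, and 0.0714 is the smallest value it can give for 6 libraries against 2. Within lane 8 the Th over Ddc difference was 7.56, where the smallest p it can give is 0.333. RPKM assumes even read coverage along a transcript, which was not tested.

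The ratio of Slc18a2 to Ddc, both shared with serotonin neurons, overlapped between the types. Per kilobase it was 0.336 and 0.693 in datM, 0.376 in Lateral and 0.300 in Medial, against 0.371 and 0.546 in the serotonin libraries. The datL libraries lay below all of these, at 0.0 and 0.0832. The mean log2 ratio differed by -2.14 between dopamine and serotonin libraries (exact permutation test, two-sided, p = 0.5, adjusted over 10 pairs 0.556), by -0.62 without datL replicate 1, and by -0.42 within lane 8. A p of this size does not show that the ratio is alike in both neuron types.

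Transporter and enzyme did not keep a fixed ratio among dopamine libraries. Slc6a3 over Th, per kilobase, was 0.95 and 0.451 in datL, 0.0241 and 0.474 in datM, 0.594 in Lateral and 0.129 in Medial, against 0.0439 and 0.00561 in the serotonin libraries. datM replicate 1, the library with the highest Th, had the lowest Slc6a3 of the dopamine libraries, and its ratio fell between those of the serotonin libraries. The difference of the mean log2 ratio was 4.01 (exact permutation test, two-sided, p = 0.143, adjusted over 10 pairs 0.204). Cyb561 over Slc18a2 ran from 0.278 to 10.9 in the 5 dopamine libraries with Slc18a2 counts, against 0.339 and 0.279 in the serotonin libraries (exact permutation test, two-sided, p = 0.214). Cyb561 over Ddc overlapped as well (exact permutation test, two-sided, p = 0.714).

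**Figure D3:**
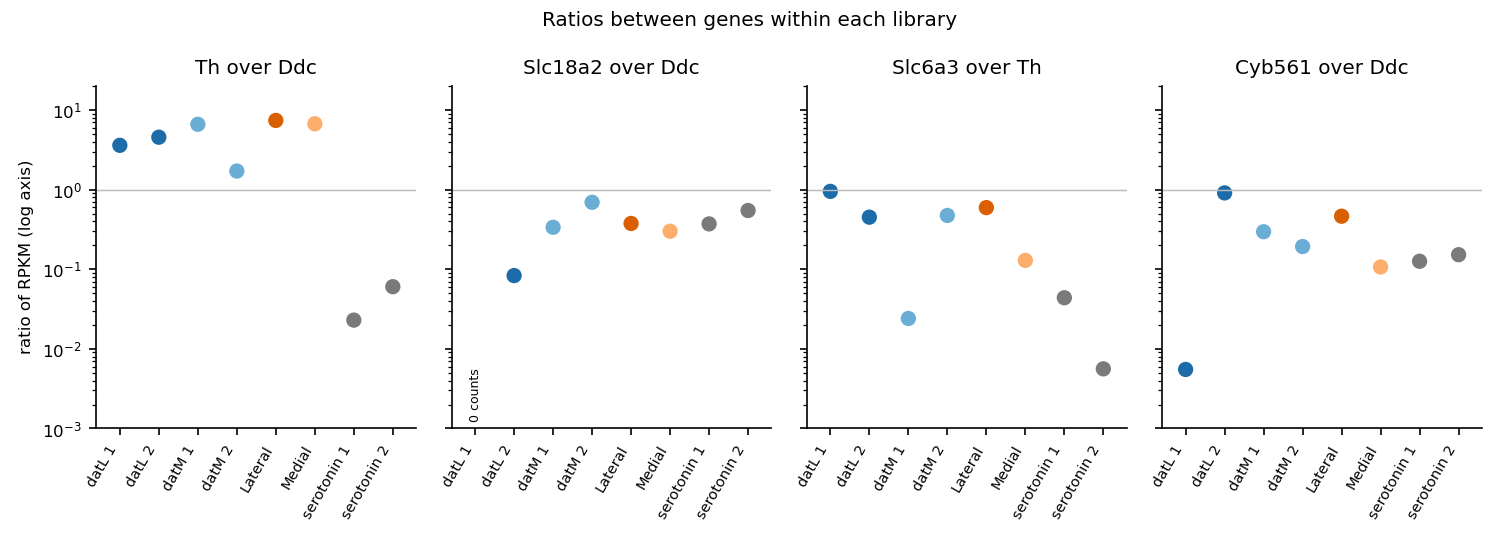
Each point is the ratio of RPKM (vertical axis, logarithmic) of a pair of genes within a library (horizontal axis), with the line at 1 where both genes are equal per kilobase. Th over Ddc is above 1 in all 6 dopamine libraries and under 0.1 in both serotonin libraries, and Slc18a2 over Ddc overlaps, with 0 counts of Slc18a2 in datL replicate 1.

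Taken as shares of the 5 genes' summed RPKM, Th made up 38.8% to 78.7% in the dopamine libraries, against 1.51% and 3.43% in the serotonin libraries. Ddc made up 7.34% to 22.7% in the dopamine libraries, against 65.8% and 56.8% in the serotonin libraries. Slc18a2 gave 0.0% to 15.7% in dopamine libraries, against 24.4% and 31.1% in serotonin libraries. Slc6a3 ran from 1.89% in datM replicate 1 to 42.6% in datL replicate 1, against 0.0662% and 0.0192% in the serotonin libraries. Cyb561 stayed at or under 10.6% in every library.

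**Figure D4:**
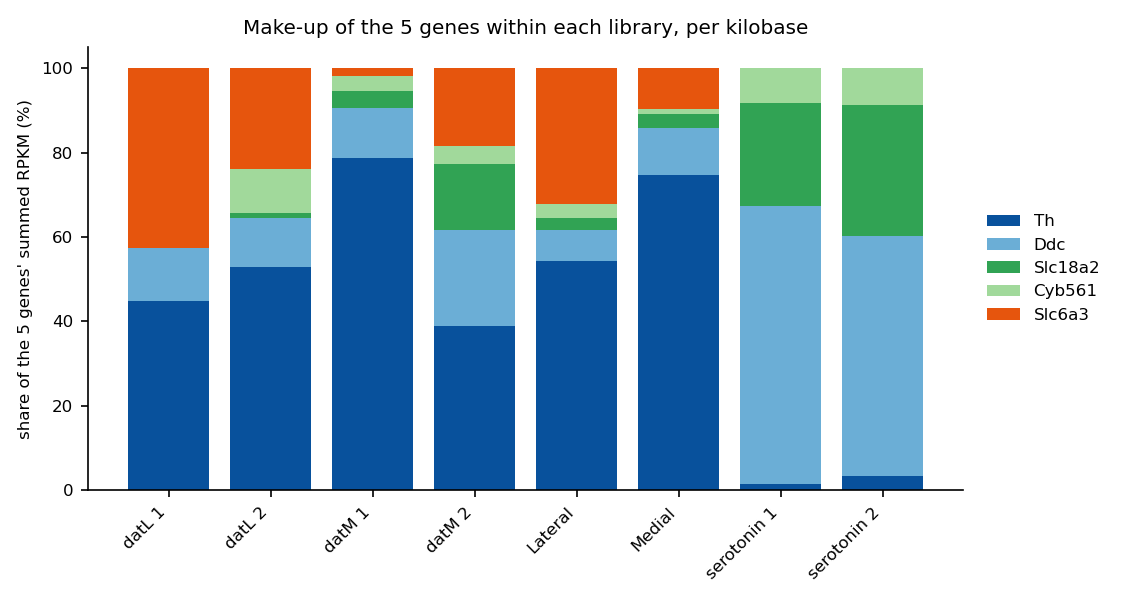
Stacked bars give the share of the 5 genes' summed RPKM (vertical axis, percent) that each gene takes in each library (horizontal axis). Th is the largest share in all 6 dopamine libraries (38.8% to 78.7%), and Ddc in both serotonin libraries (65.8% and 56.8%).

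Between datL and datM, Ddc and Slc18a2 were lower in both datL libraries than in both datM libraries, and the other 3 genes overlapped. Of 15177 genes tested, 11.3% were higher without overlap and 13.2% lower, so 2 of 5 lower is to be read against that share. In edgeR, with all 5 groups in the fit, 0 genes (0%) passed the threshold, 1050 (6.92%, with 3.4% higher and 3.52% lower) had an unadjusted p under 0.05, Ddc alone of the 5, and DESeq2 called 1588. Ddc averaged 96.5 ± 67.4 CPM in datL and 270 ± 15.6 CPM in datM (SD, n = 2 each; log2 fold change -1.41, SE 0.60, edgeR adjusted p = 0.597). Slc18a2 averaged 5.11 ± 7.23 CPM in datL and 120 ± 64.7 CPM in datM (SD, n = 2 each; log2 fold change -4.49, SE 1.96, edgeR adjusted p = 0.597, DESeq2 adjusted p = 0.0412). Its low value in datL rests on counts of 0 and 268. Without datL replicate 1 its log2 fold change was -3.49, and without datL replicate 2, which leaves datL at 0 counts, the fitted value was -14.74. Ddc gave -0.84 without datL replicate 1 and -2.40 without datL replicate 2.

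Th averaged 220 ± 180 CPM in datL and 580 ± 460 CPM in datM (SD, n = 2 each; log2 fold change -1.33, SE 0.83, edgeR adjusted p = 0.636). The reuptake transporter Slc6a3 averaged 179 ± 70.5 CPM in datL and 104 ± 102 CPM in datM (SD, n = 2 each; log2 fold change 0.87, SE 0.93, edgeR adjusted p = 0.913). Cyb561 had nearly equal means, 53.7 ± 75.7 CPM in datL and 53.4 ± 13 CPM in datM (SD, n = 2 each), from datL values that lie far apart. For these 3 genes the difference was within the spread of the libraries. The log2 fold change of Th was -0.69 without datL replicate 1, -0.13 without datM replicate 1 and -2.59 without datL replicate 2. That of Slc6a3 was 0.39 without datL replicate 2, 0.11 without datM replicate 1 and 2.54 without datM replicate 2, so single libraries set the size of both. Markers of dopamine neurons other than the 5 genes summed to 284 and 488 CPM in datL, against 1472 and 1319 CPM in datM. Markers of GABA neurons summed to 311 and 583 CPM in datL, against 50.2 and 131 CPM in datM. Of these, 3 of the 4 were higher without overlap, beside 11.3% of all genes tested. Of the 6 markers of radial glia and astrocytes, 4 were lower in datL without overlap, beside 13.2% of all genes tested. Their sums overlapped (3537 and 1919 CPM in datL, against 4918 and 2788 CPM in datM). The part of these markers in Ddc and Slc18a2 was not tested. Lmx1b and Drd2 were at 0 in both datL libraries, and at 0 or at most 0.1 CPM in datM.

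Lateral and Medial are single libraries, so no test was made, and intervals cover counting error only. Slc6a3 was 5.71-fold higher in Lateral (95% interval 5.49 to 5.93), with 740 CPM in Lateral and 130 CPM in Medial. Cyb561 was 4.88-fold higher (95% interval 4.38 to 5.45), with 82.5 CPM in Lateral and 16.9 CPM in Medial. Th, Ddc and Slc18a2 had smaller ratios of 1.24, 1.12 and 1.41. With TMM-scaled library sizes the 5 ratios were larger, at 1.35 for Th, 1.23 for Ddc, 1.53 for Slc18a2, 5.32 for Cyb561 and 6.22 for Slc6a3. Markers of GABA neurons summed to 785 CPM in Lateral and 392 CPM in Medial, and those of radial glia and astrocytes to 1981 CPM in Lateral and 3837 CPM in Medial, and their part was not tested. Of 11271 genes counted in both, with at least 100 counts in sum, 21.9% were more than 2-fold higher in Lateral and 24.6% more than 2-fold lower. Either way, 46.5% of genes were past 2-fold, so passing it is no mark of Slc6a3 or Cyb561, and 9.99% and 11.1% of genes had larger ratios than theirs.

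Lateral and Medial, which carry the E18 mark, were also set against datL and datM. In edgeR 0 of 12818 genes (0%) passed, 574 (4.48%, with 3.81% higher and 0.663% lower) had an unadjusted p under 0.05, none of the 5 among them, and DESeq2 called 35. All 5 genes overlapped between these groups, where 12.5% of genes were higher and 2.77% lower without overlap. Slc6a3 averaged 435 ± 431 CPM (SD, n = 2) in Lateral and Medial and 142 ± 83.7 CPM (SD, n = 4) in datL and datM (log2 fold change 1.5, SE 0.81, edgeR adjusted p = 1). Th averaged 769 ± 116 CPM (SD, n = 2) and 400 ± 353 CPM (SD, n = 4) in the same groups (log2 fold change 0.80, SE 0.71, edgeR adjusted p = 1). Ddc, Slc18a2 and Cyb561 had log2 fold changes of 0.02, -0.18 and -0.21, with 95% intervals of -1.46 to 1.51, -4.20 to 3.84 and -3.63 to 3.21. Of 7 markers of serotonin neurons 5 were tested, and 3 were higher without overlap in Lateral and Medial and 0 lower. Tph2, 1 of these, stood at 16.8 CPM in Lateral and 41.5 CPM in Medial, and at most 0.04 CPM in datL and datM. The part of such markers in Ddc and Slc18a2 was not tested.

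In order of mean CPM, Th ran Lateral, Medial, datM, datL, serotonin, and the libraries of Medial overlapped with datM and those of datM with datL. Slc6a3 ran Lateral, datL, Medial, datM, serotonin, and datL, Medial and datM overlapped. Ddc and Slc18a2 shared their whole order, serotonin, datM, Lateral, Medial, datL, with no overlap between neighbours. Lateral and Medial have no spread of their own in that order. Cyb561 ran serotonin, Lateral, datL, datM, Medial, and each of the first 4 groups overlapped with its neighbour among them.

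Across the 8 libraries, Pearson's r of log2(CPM + 1) was 0.941 between Ddc and Slc18a2, 0.825 between Th and Slc6a3, and -0.734 between Ddc and Slc6a3. These are descriptions over 8 libraries that share runs and neuron types. Among 10431 genes with a mean of at least 5 CPM, the genes with the highest r to Th were Pygb, a glycogen phosphorylase (r = 0.968), Aldh1a1, an enzyme of retinoic acid synthesis (r = 0.962), and Lonp2. For Ddc they were Spcs2, Cplx2, a regulator of vesicle fusion, and BC003965 (r = 0.954 to 0.962). Slc18a2 was most like Ptdss1, Hax1 and Clcn3, an endosomal chloride transporter (r = 0.963 to 0.964). Cyb561 was most like Sfxn3, Ppt1 and Rab18, a small GTPase (r = 0.976 to 0.979). Slc6a3 was most like Etv1, a transcription factor, Abl2 and Pdp2 (r = 0.924 to 0.930).

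The other genes of the pathway were taken from 8 lists. In the comparison of dopamine with serotonin over all libraries, 0 genes of any list passed edgeR's adjusted p, as for all genes. The counts below are therefore of unadjusted p under 0.05 (2.8% of all genes higher and 1.9% lower). Counts of groups without overlap are to be read against 3.06% of all genes higher and 8.59% lower. Of 8 genes for the cofactor tetrahydrobiopterin, which Th and Tph2 need, 1 was lower at unadjusted p and 5 were lower without overlap, with a median log2 fold change of -1.20 beside 0.26 for all genes. That gene was Gchfr, the feedback regulator of cofactor synthesis, at 0.0 to 37.1 CPM in dopamine libraries, against 1856 and 1692 CPM in serotonin libraries. Its log2 fold change was -7.11 (SE 1.81, edgeR adjusted p = 0.328). Gch1, the first enzyme of the cofactor pathway, stood at 0.0 to 74.7 CPM in dopamine libraries, against 202 and 168 CPM in serotonin libraries. Pcbd1, which recycles the cofactor, stood at 16 to 120 CPM, against 176 and 140 CPM.

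Of 6 genes for monoamine breakdown, 1 was higher at unadjusted p. Aldh1a1 had 29.4 to 898 CPM in dopamine libraries, against 0.6 and 0.3 CPM in serotonin libraries, and passed within lane 8 (log2 fold change 10.76, edgeR adjusted p = 0.00764). Maoa and Maob, the monoamine oxidases, were lower in all 6 dopamine libraries than in both serotonin libraries, Maoa at 0.2 to 169 CPM against 219 and 183 CPM and Maob at 0.0 to 11 CPM against 20.7 and 22.1 CPM. Neither reached an unadjusted p of 0.05 over all libraries.

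Of 9 other carriers, 8 were found and 7 tested, of which 3 were lower at unadjusted p: Slc6a4, Slc18a1 and Slc22a3. Slc6a4, under which the tag of the second line stands, passed within lane 8 (log2 fold change -8.02, edgeR adjusted p = 0.01). It had 5.3 and 3.9 CPM in Lateral and Medial, against 1196 and 1075 CPM in the serotonin libraries. Slc22a3, a low-affinity monoamine transporter, had 0.0 to 28.9 CPM in dopamine libraries, against 184 and 205 CPM in serotonin libraries. Slc18a1, the vesicular transporter of endocrine cells, had 0 counts in the dopamine libraries, against 1.0 and 1.1 CPM in the serotonin libraries. Of 5 other hydroxylases and amine enzymes, 3 were tested and 2, Tph2 and Dbh, were lower at unadjusted p. Tph2 stood at 0.0 to 41.5 CPM in dopamine libraries, against 2909 and 2189 CPM in serotonin libraries. Within the dopamine libraries, Lateral had 16.8 CPM and Medial 41.5 CPM, and datL and datM had at most 0.04 CPM. Pnmt, which makes adrenaline, was counted in datL replicate 2 (11.1 CPM) and Medial (5.8 CPM) and had 0 counts in serotonin libraries.

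**Figure D5:**
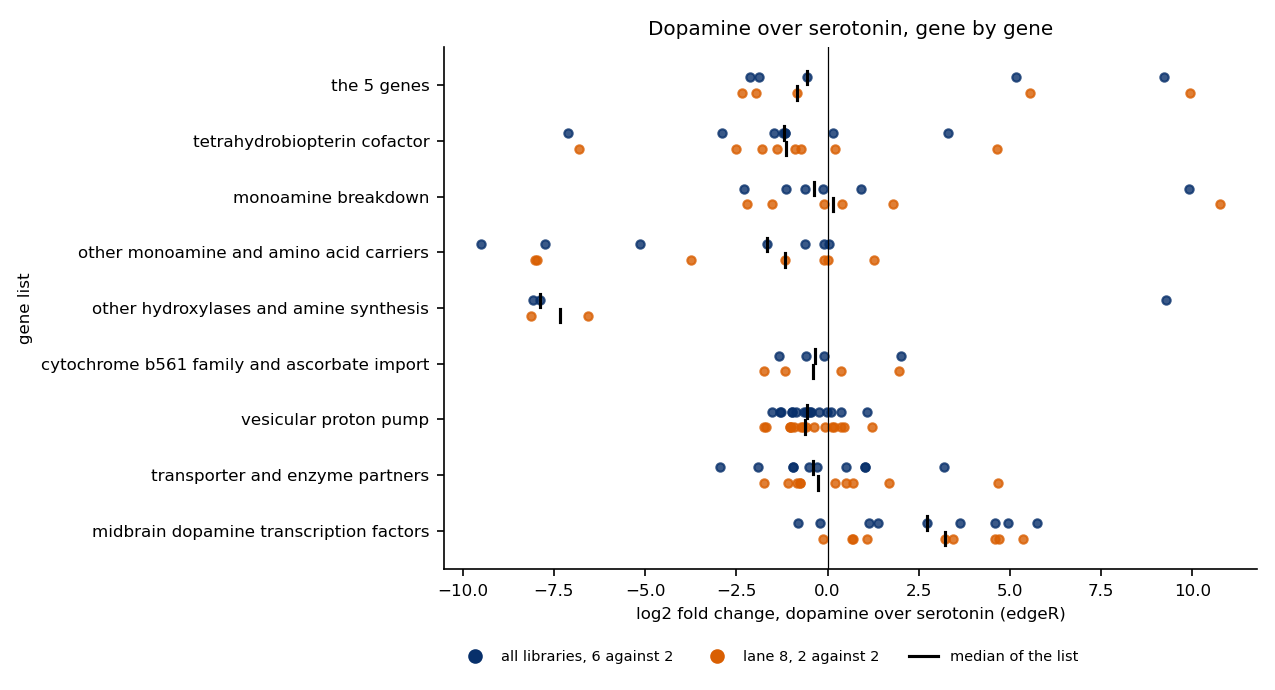
Points give the edgeR log2 fold change of single genes, dopamine over serotonin (horizontal axis), for the 5 genes and each pathway list (vertical axis), over all libraries and within lane 8, and black bars give each list's median. The median of the midbrain transcription factors is 2.72 over all libraries, and that of the vesicular proton pump is -0.56.

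Of 16 subunits and partners of the vesicular proton pump, which powers Slc18a2, 4 were lower at unadjusted p and 7 were lower without overlap, with a median log2 fold change of -0.56. Atp6v0b stood at 75.7 to 210 CPM in dopamine libraries, against 348 and 335 CPM in serotonin libraries, and Atp6v0c at 44.1 to 137 CPM against 214 and 226 CPM. Atp6v1g2, a subunit found in neurons, stood at 15.9 to 159 CPM against 278 and 243 CPM. Of 5 genes of the cytochrome b561 family and ascorbate import, 4 were tested and 0 reached an unadjusted p of 0.05. In that list Cyb561d2 stood at 0.0 to 63.5 CPM in dopamine libraries, against 94.5 and 88.1 CPM in serotonin libraries, and Slc23a2, an ascorbate importer, at 0.0 to 89.8 CPM against 8.4 and 8.3 CPM.

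Of 10 partners of the transporters and enzymes, 1 was higher and 1 lower at unadjusted p. Hspa8, a chaperone, stood at 2046 to 3531 CPM in dopamine libraries, against 1454 and 1741 CPM in serotonin libraries. Syngr3, a synaptic vesicle protein, stood at 17.8 to 271 CPM against 327 and 415 CPM. Slc10a4, a vesicle protein of monoamine neurons, stood at 0.0 to 73.5 CPM against 204 and 221 CPM. Of 9 midbrain dopamine transcription factors, 4 were higher at unadjusted p and 0 lower, with a median log2 fold change of 2.72. Among the 4 were Lmx1a, Foxa1 and Nr4a2, which acts on Th and Slc6a3. Of all 9, 7 had a log2 fold change above 0 and 2 below 0. Foxa1 stood at 40.4 to 225 CPM in dopamine libraries, against 19.0 and 6.9 CPM in serotonin libraries.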

How the data were processed

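Raw read counts per gene were deposited by the authors, 1 table per library. Per the submitters' processing notes, STAR and the build mm10 were used for the 100 bp single reads. Per the file headers, featureCounts 1.4.3-p1 made the counts without strand on GENCODE vM2. No exon of the 5 genes shares bases with another gene of the tables. Symbols came from an identifier table. Levels were computed as CPM by library total (22417739 to 33216710 counts) and RPKM by counted exon length. All genes passing filterByExpr were tested with edgeR 4.0.16 (R 4.3.3, TMM, quasi-likelihood, two-sided, Benjamini-Hochberg over all genes tested). Standard errors were derived from fold change and test statistic. Ratios used counts + 0.5 and scipy 1.17.1. Alternatives were RLE factors, DESeq2 1.42.0, no filter, a replicate block, other library sets, an added count of 5 in ratios, TMM-scaled sizes for Lateral over Medial, each library left out and, added after the data were seen, library totals without factors. No molecular identifiers are named in the labels, so copies made in the 10 PCR cycles cannot be told from separate molecules. The intervals of single counts and of Lateral over Medial cover counting error only, and may be too narrow. Genes, lists and tests were chosen with earlier results of these data known. The genes named were the 5 genes, up to 3 per pathway list by smallest p in dopamine against serotonin, the 3 most correlated genes per gene and, chosen after their values were seen, Fev and cell type markers. A marker gene of the lists is not reported here.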

Additional observations from a re-analysis of the deposited data

Results flagged for a closer look

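The Slc6a3 level of Lateral, 740 CPM, lay far above the other 5 dopamine libraries, the next being datL replicate 2 at 229 CPM. Its gap to the next library took up 0.721 of the range over dopamine libraries, where Dixon's 95% critical value for 6 samples is 0.625. The log2 ratio of Slc18a2 to Ddc counts in datL replicate 1, -11.12, lay far below the other dopamine libraries, with a gap of 0.705 of the range, and rests on 0 counts of Slc18a2. Such a gap arises by chance in about 1 in 20 groups, and the 5 levels and 10 ratios were each examined.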

How the results depend on the processing

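DESeq2 called 125 genes between dopamine and serotonin, 787 within lane 8, 1588 between datL and datM and 35 between E18-marked and unmarked libraries, against 0, 3, 0 and 0 in edgeR. With 5 groups, 2 genes passed between dopamine and serotonin, and with no expression filter 7 passed within lane 8, Th included. Leaving out each library gave 0 to 1 genes between dopamine and serotonin, 13 to 2453 within lane 8, 0 to 6 between datL and datM and 0 between E18-marked and unmarked libraries. Over its alternatives the log2 fold change, dopamine over serotonin, ran from 4.70 to 5.66 for Th, -2.15 to -1.72 for Ddc, -2.89 to -1.90 for Slc18a2, -0.94 to -0.36 for Cyb561 and 8.42 to 10.48 for Slc6a3. Without each library, datL over datM ran from -2.59 to -0.13 for Th, -2.40 to -0.84 for Ddc, -14.74 to -3.49 for Slc18a2 and 0.11 to 2.54 for Slc6a3. The directions that turned follow, none of a result past the threshold, and the cause was not tested. For Cyb561, datL over datM turned with the replicate block (-0.77) and without datL replicate 2 or datM replicate 2 (-7.84 and -0.17), over a range of -7.84 to 1.06 without each library. E18-marked over unmarked Ddc turned with RLE factors (-0.073), in DESeq2 (-0.073) and without datL replicate 1, datL replicate 2 or Lateral (-0.28 to -0.10, over a range of -0.28 to 0.25). In the same comparison Cyb561 turned without datL replicate 2 or Medial (0.36 and 0.55, range -1.91 to 0.55), Slc18a2 without datM replicate 2 or Medial (0.90 and 0.12, range -0.59 to 0.90) and Slc6a3 without Lateral (-0.39, range -0.39 to 2.30). The ratio of Cyb561 to Ddc turned without datL replicate 2 or Lateral (-0.31 and -0.12, range -0.31 to 1.13). Library totals without factors moved the median of all genes by -0.12 between dopamine and serotonin and by 0.18 between E18-marked and unmarked libraries. Same-numbered deviations correlated at 0.0986, 0.0150 and -0.0028, which does not exclude that replicate numbers pair the libraries. The block was fitted between dopamine and serotonin and between datL and datM. In both, 0 genes passed with or without the block, so there was no call to lose. Counts of 0 and 5 in datL replicate 1 limit Slc18a2 and Cyb561.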
